A study of Drosophila melanogaster with 11 samples.

Results

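The wild-type larval salivary gland was compared with the wild-type larval wing imaginal disc by RNA sequencing. The members are 6 of the 11 libraries of the series, chosen by their labelled strain and tissue: 3 from salivary glands and 3 from wing discs. All 6 come from w1118 larvae of Drosophila melanogaster at the 3rd instar, with stocks kept at 25 C, and no dCap-D3 mutant library entered any value. w1118 carries a mutation of the white eye colour gene and is commonly used as a wild-type stock. A salivary sample pooled 50 tissues and a wing disc sample pooled 150, and no label tells whether the samples came from separate cultures, so p-values here measure only the spread between these samples. Salivary libraries were non-directional and wing libraries directional, both read as 50 bp paired ends, so library kind and tissue cannot be told apart.

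The salivary gland is a secretory organ whose cells replicate their DNA without dividing and so build giant polytene chromosomes. Late in larval life these cells make glue proteins, mucin-like secretions that fix the pupal case to a surface, under the control of the steroid ecdysone and of transcription factors such as fkh and sage. The wing disc is a folded epithelium of diploid cells that divide until pupation. It is patterned by Hedgehog, Dpp, Wingless and Notch signals and by selector genes such as vg and ap, and it carries muscle precursors and tracheal cells on its surface.

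Salivary libraries held 52483185, 57349302 and 61644480 counts, and wing libraries held 61533957, 65095670 and 157639957. Values per library are given as CPM, read counts put on one library size with TMM factors, which allow for a few dominant genes. Across genes, the log2 CPM of a pair of libraries correlated at 0.953 to 0.970 within salivary glands, 0.941 to 0.980 within wing discs and 0.620 to 0.682 between the tissues. A count of 0 allows up to 3 counts, or 0.0806 to 0.0832 CPM in a salivary library and 0.0121 to 0.0312 CPM in a wing library, for counting error only. Transcripts of other tissues differed between replicates: salivary replicate 2 had the most gut transcripts and wing replicate 2 the most fat body and glue transcripts, with values given below. Wing replicate 3 differed from the other wing libraries by transcript length. Tested genes were split into 4 equal classes by exon length. In the class of the longest, the median deviation from the wing mean was 0.54 on the log2 scale in wing replicate 3, -0.21 in replicate 1 and -0.60 in replicate 2, while the salivary replicates stayed between -0.04 and 0.06.

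In salivary glands 2935 genes (30.2% of 9720 tested) were called higher and 3911 (40.2%) lower than in wing discs. Calls come from edgeR's quasi-likelihood test and need a p-value of at most 0.05 after Benjamini-Hochberg adjustment over the tested genes. In both directions together 70.4% of genes were called, so a call alone says little about a gene, and the size of the change is given throughout as log2 of salivary over wing with its standard error. Called changes of at least 4-fold numbered 1918 (19.7%) higher and 1922 (19.8%) lower, or 39.5% in all. The CPM ranges of the tissues did not overlap for 75.5% of tested genes, with salivary glands above for 31.8% and wing discs above for 43.7%. Without salivary replicate 2 and wing replicate 2 the calls numbered 2788 higher and 3168 lower. Without wing replicate 3 they numbered 3386 and 4112. The median change over all tested genes was -0.28, and each gene list below is to be read against that value and against the shares called over all genes. When libraries were scaled by total count alone the median became -1.55, with 1721 genes called higher and 5995 lower. In that setting 22.3% of calls were higher, against 42.9% with TMM factors.

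The 4 marker genes matched the labelled tissues. Sgs3 (FBgn0003373, 3L, 11512221 to 11513402 on build BDGP6), a glue protein gene, stood at 131135, 166038 and 184342 CPM in salivary glands, against 22.5, 84.0 and 16.1 CPM in wing discs. fkh, the forkhead factor that specifies the gland, stood at 141, 126 and 190 CPM in salivary glands, against 0, 0.0520 and 0.141 CPM in wing discs. The 2 tissues were far apart for both genes, with log2 changes of 11.94 ± 1.03 (adjusted p = 2.17e-04) and 10.996 ± 1.08 (adjusted p = 3.09e-04). vg, the wing selector gene, had 0.242, 0.0271 and 1.55 CPM in salivary glands, against 67.1, 37.4 and 91.1 CPM in wing discs. nub, a POU-domain gene of the wing pouch and hinge, had 1.94, 4.22 and 1.72 CPM in salivary glands, against 87.3, 51.6 and 153 CPM in wing discs. Their log2 changes were -6.75 ± 1.22 (adjusted p = 0.00318) and -5.21 ± 0.61 (adjusted p = 5.66e-04), and the ranges of the tissues did not overlap for any of the 4 genes.

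**Figure D1:**
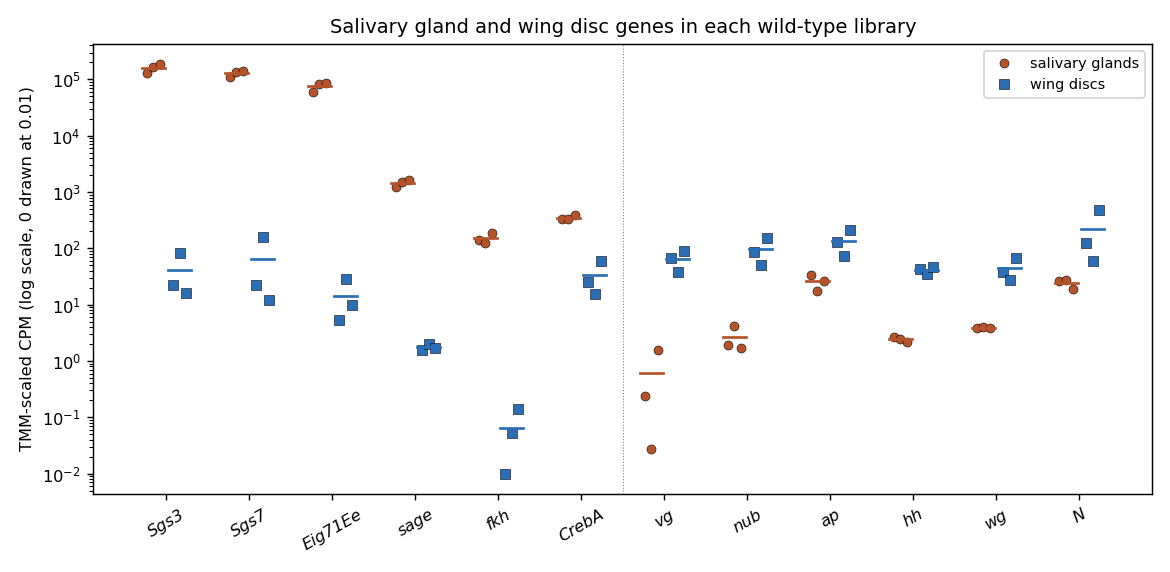
Scaled CPM of 12 genes in each library on a log axis, salivary glands as circles and wing discs as squares, with a line at each mean. The 6 genes left of the dotted line lie higher in every salivary library, up to 184342 CPM for Sgs3, and the 6 genes right of it lie higher in every wing library.

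Salivary RNA was concentrated in a few genes. The 10 most abundant genes took 46.5%, 45.9% and 48.0% of counts in salivary libraries, against 8.70%, 8.92% and 7.62% in wing libraries. It took 13, 15 and 12 genes to reach 50% of counts in salivary glands, and 219, 142 and 427 genes in wing discs. The exact permutation test over 3 against 3 libraries cannot go below 0.10, so no p is given for these shares. In salivary glands the leading genes were Sgs3 with a mean of 10.3% of counts, Sgs7 with 8.33%, Sgs5 with 8.06%, Eig71Ee with 4.92% and the fat body gene Fbp1 with 4.65%. In wing discs the leading gene was Ef1alpha48D, a translation elongation factor, with 1.80%.

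**Figure D2:**
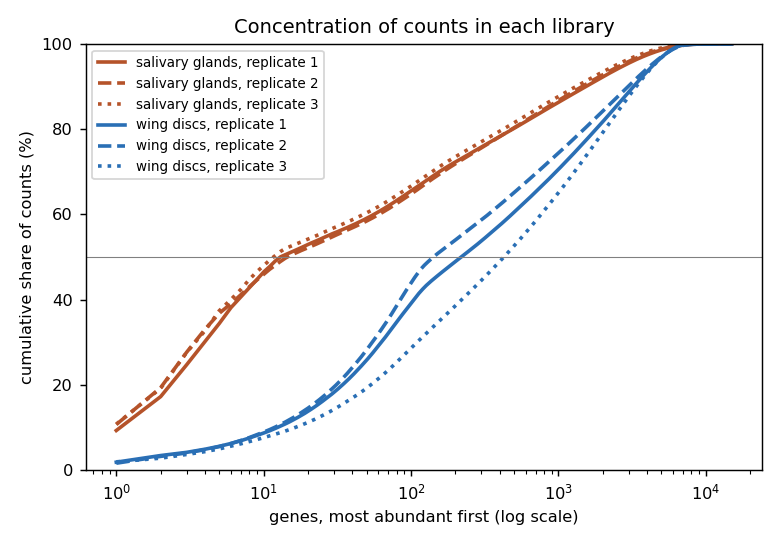
Cumulative share of counts (%) against the number of genes taken from the most abundant down (log axis), one line per library. The 3 salivary lines cross 50% at 12 to 15 genes and the 3 wing lines at 142 to 427 genes.

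All 12 tested glue and intermoult genes were called higher in salivary glands, by log2 changes of 8.85 to 14.80 with a median of 12.15. Both ends of that range, ng4 and ng1, rest on 0 counts in wing discs. Members near 0 in wing discs, such as ng1, ng2, ng4 and Pig1, passed the filter on low counts through their salivary libraries alone. Only a call higher was open to these members. Together they made up 34.5%, 38.4% and 38.6% of counts in salivary libraries, against 0.0134%, 0.0626% and 0.00917% in wing libraries. Sgs7, a short glue protein gene, had 112177, 134178 and 143408 CPM in salivary glands, against 22.2, 156 and 12.3 CPM in wing discs. The wing values thus peaked in replicate 2 for Sgs7, as for Sgs3, and its log2 change was 10.996 ± 1.42 (adjusted p = 8.21e-04). Per kilobase of exon, Sgs7 averaged 404739 CPM in salivary glands, above Sgs5 with 197958, Sgs3 with 144729 and Sgs4 with 35681. The new glue gene ng1 had 46.7, 16.97 and 52.6 CPM in salivary glands and 0 in all 3 wing libraries, which puts it at least 1577-fold higher when each wing library is set to 3 counts. Its neighbour Pig1, a pre-intermoult gene, had 15.5, 15.8 and 20.7 CPM in salivary glands and 0 in wing discs, at least 705-fold higher. The nearby ng4 was low in the gland too, at 0.672, 0.568 and 0.638 CPM.

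The Eig71E genes form an ecdysone-induced cluster of late puff 71E. Of 10 members, 6 passed the filter on low counts, for which their salivary libraries alone sufficed, and these were called higher, by 9.40 to 10.52 on the log2 scale. The other members, Eig71Eh, Eig71Ei, Eig71Ej and Eig71Ek, were not tested and lay between 0.0269 and 0.406 CPM in salivary glands and between 0 and 0.00806 CPM in wing discs. Eig71Ea had 214, 843 and 441 CPM in salivary glands, against 0.122, 1.72 and 0.391 CPM in wing discs. Salivary replicate 2 was highest and replicate 1 lowest for Eig71Ea, and likewise for Eig71Ec (138, 544 and 333 CPM) and Eig71Ef (24.9, 105 and 45.0 CPM). Eig71Ee, which lies in the same cluster and encodes a glue component, reached 59570, 83869 and 87480 CPM in salivary glands, against 5.33, 28.1 and 9.88 CPM in wing discs.

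Among transcription factors of the gland, 5 of 7 tested were called higher and 2 lower. The list's hkb and rib fell below the filter on low counts and were not tested. In salivary glands hkb had 0.0806, 0 and 0 CPM and rib 0 CPM throughout, and neither passed 0.0208 CPM in wing discs. sage, a basic helix-loop-helix factor that works with fkh, had 1240, 1511 and 1660 CPM in salivary glands, against 1.55, 2.02 and 1.70 CPM in wing discs (log2 change 9.71 ± 0.30, adjusted p = 6.23e-05). CrebA, which raises secretory pathway genes, had 328, 332 and 394 CPM in salivary glands, against 24.9, 15.5 and 59.9 CPM in wing discs (3.40 ± 0.54, adjusted p = 0.00185). The zinc finger gene sens, also a marker of sensory precursors in discs, stood at 77.7, 60.8 and 96.8 CPM in salivary glands, against 3.96, 3.71 and 5.999 CPM in wing discs. Scr, the Hox gene that sets the gland's position in the embryo, was called higher by 3.68 ± 0.81. The Hox cofactors exd (-0.58 ± 0.18, adjusted p = 0.0251) and hth (-1.50 ± 0.53, adjusted p = 0.0414) were called lower. Those 2 calls were the least stable of the group, since exd kept its call in 2 and hth in 1 of the 6 fits that left out a library.

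Modifying enzymes of the secretory pathway differed within their families. In the prolyl 4-hydroxylase alpha family, PH4alphaSG1 had 83.6, 65.0 and 100 CPM in salivary glands and 0 in wing discs, at least 3376-fold higher. PH4alphaSG2 had 316, 276 and 390 CPM in salivary glands, against 0.0304, 0.0936 and 0.0161 CPM in wing discs (log2 change 12.89 ± 0.77). Both passed the filter on low counts through their salivary libraries alone, so only a call higher was open to them. PH4alphaEFB, in contrast, had 31.5, 30.2 and 29.4 CPM in salivary glands, against 31.2, 29.8 and 34.9 CPM in wing discs, and its change of -0.07 ± 0.15 was not called. PH4alphaMP was low and overlapping in both tissues. Of 11 tested enzymes that start or extend mucin-type O-glycans, the sugar chains of glue mucins, 9 were called higher and 1 lower, with a median of 2.68. The transferase gene CG30463 had 672, 625 and 769 CPM in salivary glands, against 23.3, 15.7 and 48.0 CPM in wing discs (4.57 ± 0.48), and pgant4 had 20.4, 35.6 and 39.1 CPM in salivary glands, against 0.142, 1.06 and 0.169 CPM in wing discs. GalNAc-T1 (3.30 ± 0.24) and GalNAc-T2 (2.68 ± 0.32) were also called higher. The call lower was Pgant35A, with 0 to 0.0541 CPM in salivary glands and 22.0 to 25.1 CPM in wing discs, and 93.5% of its exon bases are shared with a gene on the opposite strand.

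Vesicle coats and the proton pump were called higher almost throughout. All 18 subunit genes of the vacuolar proton pump, which acidifies vesicles, were called higher, by 1.44 to 4.59 with a median of 2.19. All 9 genes of the COPI list, for Golgi coats and their GTPases, were called higher by 1.0 to 2.01. Of 14 COPII coat and cargo receptor genes, 12 were called higher and 0 lower, with a median of 1.88. The pump's membrane subunit gene Vha16-1 had 1720, 2028 and 2342 CPM in salivary glands, against 345, 268 and 372 CPM in wing discs. Tango1, which helps load bulky cargo, had 261, 263 and 319 CPM in salivary glands, against 40.9, 30.1 and 81.9 CPM in wing discs (2.46 ± 0.41, adjusted p = 0.00224). Scaled by total count alone, the pump kept 13 calls higher, the COPII list 5 and the COPI list 1, and 2 COPII genes were called lower. The 3 medians were then 0.91, 0.60 and 0.39.

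Genes of the endoplasmic reticulum differed less. Of 19 genes for signal recognition and translocation 11 were called higher and 2 lower (median 0.74), and of 15 folding and glycosylation genes 10 were called higher and 1 lower (median 0.83). Both medians turned negative, to -0.53 and -0.44, when libraries were scaled by total count alone, although they stayed 1.03 and 1.11 above the median of all genes. In that setting 3 genes of the first list were called higher and 9 lower, and 2 of the second higher and 6 lower. Without wing replicate 1 the counts of calls higher dropped to 7 and 5. The calls lower in the first list were Spase12, described below, and Sec63 (-0.67), and 1 of the 2 was lost without any salivary replicate or wing replicate 1. The translocon partner TRAM had 1090, 1003 and 1181 CPM in salivary glands, against 185, 224 and 211 CPM in wing discs (2.40 ± 0.19). The chaperone Hsc70-3, the fly BiP, had 4041, 4085 and 4997 CPM in salivary glands, against 456, 437 and 937 CPM in wing discs (2.84 ± 0.37). wbl, a disulphide isomerase relative known from dorsal-ventral patterning of the egg, was called lower (-2.96 ± 0.29).

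Genes of the ecdysone response were called in both directions. Of 24 tested, 16 were called higher and 3 lower, and 9 higher and 5 lower with scaling by total count alone. The early gene Eip74EF, an ETS factor, had 342, 614 and 729 CPM in salivary glands, against 34.9, 20.9 and 57.2 CPM in wing discs (3.90 ± 0.50). The nuclear receptor Eip78C had 242, 509 and 488 CPM in salivary glands, against 19.0, 20.1 and 40.8 CPM in wing discs (3.95 ± 0.48). In both, salivary replicate 1 was the lowest of the gland libraries and still above every wing library. The receptor gene EcR, chosen after its values were seen, was called higher by 2.86 ± 0.56 (adjusted p = 0.00443). The 3 genes called lower were ImpE1, ImpE2 and ImpE3, first known as ecdysone-inducible genes of imaginal discs, and ImpE1 kept its call in 3 of 6 fits without a library. ImpE2 had 228, 133 and 153 CPM in salivary glands, against 2368, 2705 and 3540 CPM in wing discs (-4.07 ± 0.32, adjusted p = 1.66e-04), and was among the 8 most abundant genes called at least 4-fold lower.

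Of 20 antimicrobial peptide genes 14 were tested, of which 9 were called higher in salivary glands and 0 lower, with a median of 4.78. Members near 0 in wing discs, such as CecC, passed the filter on low counts through their salivary libraries alone, so only a call higher was open to them. With no such filter 11 of the 20 were called higher and 0 lower, with a median of 4.27. The cecropin CecC had 59.5, 54.7 and 83.4 CPM in salivary glands, against 0.0101, 0.0520 and 0 CPM in wing discs (11.94 ± 0.99). Drs, which encodes the antifungal drosomycin, had 32.4, 15.5 and 15.6 CPM in salivary glands, against 0.193, 2.53 and 0.157 CPM in wing discs (4.48 ± 1.22, adjusted p = 0.0165). Wing replicate 2 was again the highest wing library for Drs. LysP, a lysozyme gene of the salivary gland, had 16.1, 23.1 and 36.8 CPM there and a single count in the wing libraries together. These peptides are also made by the fat body, whose transcripts were present (below), and the part of those transcripts in the peptide calls was not tested.

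**Figure D3:**
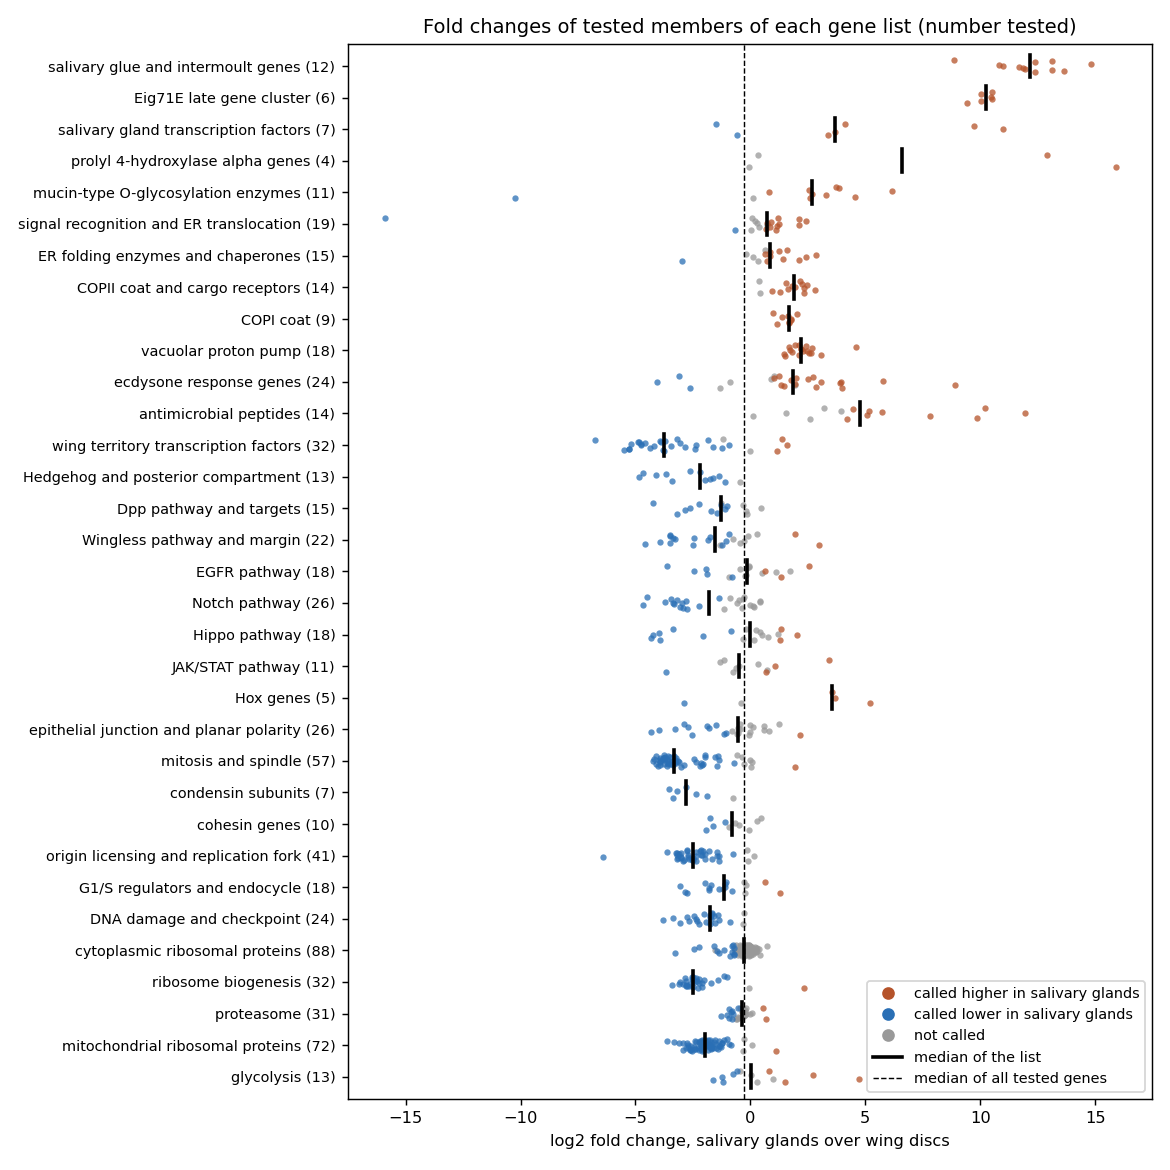
Log2 fold changes, salivary glands over wing discs, of tested members of every gene list except the marker lists of other tissues, coloured by call. A bar stands at each list's median and a dashed line at the median of all tested genes (-0.28). Glue, Eig71E and proton pump genes lie wholly to the right, while mitosis, replication, ribosome biogenesis and wing territory genes lie mostly to the left.

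Transcription factors that mark territories of the disc formed the reverse of the glue list. Of 32 tested, 27 were called lower in salivary glands and 3 higher, and 23 of the calls lower were at least 4-fold. The dorsal selector ap had 33.7, 17.7 and 26.7 CPM in salivary glands, against 129, 73.8 and 208 CPM in wing discs (-2.39 ± 0.45). tsh, a zinc finger gene of the hinge and notum, had 14.4, 9.15 and 8.09 CPM in salivary glands, against 130, 91.2 and 199 CPM in wing discs (-3.73 ± 0.41). Among genes chosen after their values were seen, the T-box gene Doc1 had 0.591, 0.676 and 0.610 CPM in salivary glands, against 32.7, 27.5 and 25.7 CPM in wing discs, and the Iroquois gene ara was called lower by -4.38 ± 0.35. The calls higher were the Pax genes eyg (1.60 ± 0.34) and toe (1.38 ± 0.21) and the zinc finger gene elB (1.15 ± 0.30). eyg had 42.2, 55.1 and 73.4 CPM in salivary glands, against 16.9, 13.1 and 26.2 CPM in wing discs. elB kept its call in 4 of 6 fits without a library. Scaled by total count alone none of these 3 was called, and elB stood at -0.14.

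Hedgehog signalling was almost wholly lower in salivary glands, with 12 of 13 genes called lower and 0 higher. The ligand gene hh had 2.66, 2.46 and 2.16 CPM in salivary glands, against 43.0, 34.8 and 46.4 CPM in wing discs (-4.09 ± 0.20, adjusted p = 8.97e-05). The posterior selectors en (-4.86 ± 0.33) and inv (-4.66 ± 0.32) changed most in the list. Receptors and co-receptors followed: ptc was called lower by -2.17 ± 0.46, smo by -2.61 ± 0.36, ihog by -3.67 ± 0.27 and boi by -3.42 ± 0.43. The signal's transcription factor ci kept 49.3, 46.5 and 43.5 CPM in salivary glands, against 141, 86.5 and 323 CPM in wing discs. As in other bulk samples, fewer cells of a type and less RNA per cell cannot be told apart.

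In the Dpp, Wingless and Notch lists most calls were lower. Of 15 Dpp pathway genes 10 were called lower and 0 higher, of 22 Wingless pathway genes 14 lower and 2 higher, and of 26 Notch pathway genes 14 lower and 0 higher. The ligand genes dpp and wg, chosen after their values were seen, were called lower by -2.86 ± 0.38 and -3.51 ± 0.36. wg had 3.79, 4.03 and 3.85 CPM in salivary glands, against 38.2, 27.7 and 66.7 CPM in wing discs. The BMP ligand gbb was lower by a smaller amount (-1.12 ± 0.18), and the Dpp receptor tkv by -2.22 ± 0.38. The Notch receptor gene N had 26.7, 27.2 and 18.6 CPM in salivary glands, against 125, 60.6 and 482 CPM in wing discs, with replicate 3 far above the other wing libraries (-3.20 ± 0.80, adjusted p = 0.0115). fng, which modifies the Notch receptor, was lower by -4.49 ± 0.24 and the ligand gene Ser by -3.45 ± 0.47. The Wingless calls higher were the kinase sgg (1.95 ± 0.57) and the homeobox gene ct (2.97 ± 0.87). Both lost their calls without salivary replicate 2, salivary replicate 3 or wing replicate 1, the adjusted p reaching 0.0717 and 0.0617. Without wing replicate 3 the Notch list held 3 calls higher and the Dpp list 1. Scaled by total count alone, 23 Notch pathway genes were called lower, and the Wingless list held 19 calls lower and 0 higher.

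The EGFR, Hippo and JAK/STAT lists held calls in both directions, but no more often than tested genes at large (30.2% higher, 40.2% lower). Shares higher were 16.7%, 16.7% and 27.3% in these lists, and shares lower were 27.8%, 38.9% and 9.09%. Their medians were -0.16, -0.01 and -0.48, beside -0.28 for all genes. Of 18 EGFR pathway genes 3 were called higher and 5 lower, of 18 Hippo pathway genes 3 higher and 7 lower, and of 11 JAK/STAT genes 3 higher and 1 lower. Scaling by total count alone turned the balance, with 1 higher and 14 lower in the EGFR list, 0 higher and 12 lower in the Hippo list, and 1 higher and 7 lower in the JAK/STAT list. With DESeq2 the calls higher were 5 in the EGFR list and 7 in the Hippo list. The EGFR ligand spi had 34.9, 37.2 and 37.2 CPM in salivary glands, against 159, 124 and 136 CPM in wing discs (-1.94 ± 0.19). ru, a protease that processes such ligands, was called higher (2.56 ± 0.38) at a low level of 2.36 to 4.71 CPM in salivary glands and 0.584 to 0.593 CPM in wing discs. The large cadherin genes ds (-4.31 ± 0.74) and ft (-3.995 ± 0.85) and the atypical myosin d (-3.95 ± 0.44), which act at the top of Hippo signalling, were called lower. ft had 14.5, 14.1 and 11.5 CPM in salivary glands, against 113, 55.3 and 473 CPM in wing discs. crb, an apical polarity gene, had 184, 583 and 603 CPM in salivary glands, against 74.2, 40.0 and 217 CPM in wing discs, so the ranges overlapped, and its call (2.05 ± 0.75, adjusted p = 0.0466) held in 2 of 6 fits without a library. The counts of calls higher in these 3 lists moved with single libraries, to 5, 7 and 5 without wing replicate 3 and to 1 each without wing replicate 1. Without salivary replicate 2 or salivary replicate 3 they were 1 for the EGFR and Hippo lists, and without salivary replicate 1 the EGFR count was 1. The JAK/STAT calls lower became 3 without wing replicate 2.

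Among the 5 Hox genes tested, which assign segment identity, the head genes Scr, Dfd and lab were called higher in salivary glands and Ubx lower. Scr had 15, 6.41 and 5.85 CPM in salivary glands, against 0.172, 0.624 and 1.31 CPM in wing discs. Dfd (5.21 ± 0.93) and lab (3.55 ± 0.86) were higher at low levels, with Dfd at 1.10, 1.11 and 0.859 CPM in salivary glands, against 0, 0.0624 and 0.0201 CPM in wing discs. Ubx, which specifies the haltere, had 0.403, 0.216 and 0.416 CPM in salivary glands, against 1.61, 3.92 and 2.12 CPM in wing discs. Antp, the Hox gene of the thorax, had 19.3, 11.6 and 15.97 CPM in salivary glands, against 20.9, 10.8 and 30.2 CPM in wing discs, and was not called (-0.41 ± 0.40, adjusted p = 0.395).

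Of 26 junction and planar polarity genes 11 were called lower and 1 higher. The share called lower, 42.3%, was near the 40.2% of all tested genes, while the share called higher was 3.85% beside 30.2%. The list's median was -0.55, beside -0.28 for all genes. Fas3, a septate junction adhesion gene, had 56.8, 58.2 and 55.6 CPM in salivary glands, against 326, 209 and 464 CPM in wing discs (-2.55 ± 0.32). shg, the fly E-cadherin, was lower by -1.89 ± 0.64 (adjusted p = 0.0352) and kept its call in 3 of 6 fits without a library. The call higher was sdt, the intracellular partner of crb, with 141, 210 and 199 CPM in salivary glands, against 33.3, 22.0 and 67.2 CPM in wing discs (2.16 ± 0.45). Without wing replicate 3 the list held 5 calls higher and with DESeq2 4, while scaled by total count alone it held 21 lower and 0 higher.

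Mitotic genes were lower in the polytene tissue. Of 57 mitosis and spindle genes 50 were called lower in salivary glands, 43 of them at least 4-fold, and 1 higher, with a median of -3.31. CycB, a mitotic cyclin, had 16.7, 14.0 and 11.03 CPM in salivary glands, against 212, 172 and 249 CPM in wing discs (-3.92 ± 0.27, adjusted p = 1.30e-04). The mitotic kinase polo had 24.3, 20.02 and 15.2 CPM in salivary glands, against 244, 218 and 313 CPM in wing discs. The call higher was the kinesin gene cana (1.94 ± 0.53, adjusted p = 0.0170), which lost it without salivary replicate 3 or wing replicate 1, and without wing replicate 3 there were 2. Of the 31 members whose exons overlap no opposite-strand exon, 27 were called lower.

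Condensin subunits, which compact chromosomes, were lower in 6 of 7 cases. barr changed most (-3.53 ± 0.31), with 8.87, 6.47 and 5.02 CPM in salivary glands, against 73.9, 64.3 and 96.7 CPM in wing discs. Cap-D2 of condensin I (-3.37 ± 0.32) and the core gene SMC2 (-3.19 ± 0.34) were close behind, while Cap-G was lower by -1.89 ± 0.30. Cap-H2 of condensin II was called lower (-2.37 ± 0.48). Its partner Cap-D3, the gene mutated elsewhere in the series, had 7.20, 6.49 and 8.29 CPM in salivary glands, against 10.9, 8.17 and 17.7 CPM in wing discs, and was not called (-0.74 ± 0.31, adjusted p = 0.0734). Cap-D3 was called lower with upper-quartile scaling and with scaling by total count alone. In the cohesin list 4 of 10 were called lower, a share of 40% beside 40.2% of all tested genes. Among them were SA (-1.92 ± 0.32) and SMC3 (-1.64 ± 0.35), and none changed 4-fold. With scaling by total count alone 9 cohesin genes were called lower. Without wing replicate 3 the cohesin list held 1 call higher.

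DNA replication genes were lower as well, although salivary cells replicate their DNA in endocycles. Of 41 genes of origin licensing and the replication fork 38 were called lower and 0 higher (1 without wing replicate 3), with a median of -2.48. The sliding clamp gene PCNA had 30.4, 27.9 and 32.1 CPM in salivary glands, against 296, 325 and 199 CPM in wing discs (-3.18 ± 0.25). RnrS, a ribonucleotide reductase subunit, kept more of its level, at 60.8, 68.0 and 80.8 CPM in salivary glands, against 192, 210 and 175 CPM in wing discs (-1.46 ± 0.20). Among 18 regulators of S phase entry and the endocycle 12 were called lower and 2 higher. The 2 higher were E2f1, the activating E2F factor, with 177, 175 and 190 CPM in salivary glands, against 67.2, 39.8 and 117 CPM in wing discs (1.27 ± 0.40, adjusted p = 0.0272), and rap (0.64 ± 0.20, adjusted p = 0.0274). rap encodes fizzy-related, which activates the anaphase-promoting complex in endocycles. Each kept its call in 2 of 6 fits without a library. Scaled by total count alone E2f1 stood at -0.01 and was not called, while rap stood at -0.62 and was called lower (adjusted p = 0.0451). The E2F partner genes Dp (-1.35 ± 0.28), Rbf (-1.10 ± 0.26) and the cell cycle gene Myb (-1.79 ± 0.26) were called lower. Of 24 DNA damage genes 22 were called lower, with a median of -1.76, among them the checkpoint kinase grp (-2.66 ± 0.19).

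Ribosome biogenesis and mitochondrial ribosomal protein genes were mostly called lower, whereas most cytoplasmic ribosomal protein genes were not called unless libraries were scaled by total count alone. Of 32 ribosome biogenesis genes 30 were called lower and 1 higher, with a median of -2.48. The nucleolar gene Nop60B had 48.3, 39.1 and 39.9 CPM in salivary glands, against 370, 368 and 368 CPM in wing discs (-3.12 ± 0.18). Fib, the fibrillarin gene, had 23.6, 19.7 and 19.8 CPM in salivary glands, against 250, 258 and 162 CPM in wing discs (-3.41 ± 0.26). The call higher was pes (2.33 ± 0.40), the scavenger receptor gene peste in flies, which entered the list through a shared name and is no nucleolar gene. Of 72 mitochondrial ribosomal protein genes 68 were called lower and 1 higher, with a median of -1.97. Of 88 cytoplasmic ribosomal protein genes, in contrast, 14 were called lower and 0 higher, and their median of -0.27 lay at that of all genes. Scaled by total count alone, 87 of the 88 were called lower and 0 higher, with a median of -1.53 beside -1.55 for all genes. With DESeq2 8 were called lower and 1 higher. RpL3 had 1863, 2120 and 2273 CPM in salivary glands, against 3962, 3866 and 2980 CPM in wing discs (-0.79 ± 0.21, adjusted p = 0.0146), a call that held in 2 of 6 fits without a library. The count of 14 moved between 6 without wing replicate 2 and 38 without wing replicate 3, and lay at 7 to 9 without any other library, while 2 were called higher without wing replicate 2.

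Proteasome and glycolysis genes were called in both directions. Of 31 proteasome genes 2 were called higher and 9 lower (6.45% and 29.0%), with a median of -0.38. When scaled by total count alone, 31 of 31 were called lower, with a median of -1.65, and with DESeq2 3 were called lower and 2 higher. The calls lower numbered 16 without wing replicate 3, 2 without wing replicate 2, 3 without salivary replicate 1, salivary replicate 2 or wing replicate 1, and 5 without salivary replicate 3. Both calls higher were lost without salivary replicate 2, salivary replicate 3 or wing replicate 1. Of 13 glycolytic genes 4 were called higher and 5 lower. These shares, 30.8% and 38.5%, were near the 30.2% and 40.2% of all tested genes. With scaling by total count alone 2 were called higher and 8 lower. The aldolase gene Ald had 745, 634 and 802 CPM in salivary glands, against 264, 232 and 275 CPM in wing discs (1.5 ± 0.19), and ImpL3, lactate dehydrogenase, was higher by 2.73 ± 0.43. Gapdh2 (-1.64 ± 0.19) and Eno (-1.18 ± 0.18) were called lower. Steps of 1 pathway thus lay on both sides, in shares near those of all tested genes.

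Among the most abundant genes called at least 4-fold lower were cytoskeletal and chromatin genes. The beta-tubulin gene betaTub56D had 970, 838 and 957 CPM in salivary glands, against 4125, 4478 and 4037 CPM in wing discs (-2.19 ± 0.19), and the cytoplasmic actin gene Act42A was lower by -2.16 ± 0.19. The HMG-box chromatin gene HmgD had 206, 127 and 119 CPM in salivary glands, against 1546, 1548 and 1237 CPM in wing discs (-3.26 ± 0.29). The chromatin decondensation gene Df31 (-2.80 ± 0.25), the SUMO gene smt3 (-2.57 ± 0.24) and bic (-2.05 ± 0.22) were also in the group. ImpE2, given above, and Nap1, given below, completed it.

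Transcripts of other tissues were present in both sets of libraries, and their part in the results above was not tested. Fat body markers, the transcripts of larval storage proteins among them, took 11.9%, 7.13% and 9.44% of counts in salivary libraries, against 0.232%, 1.66% and 0.373% in wing libraries. Of 17 tested, 14 were called higher and 0 lower. Fbp1, a fat body storage protein receptor, had 77448, 58332 and 80363 CPM in salivary glands, against 200, 2768 and 537 CPM in wing discs, and Lsp1gamma had 52466, 29468 and 44963 CPM against 255, 2463 and 456 CPM. Lsp2, another storage protein gene, did not follow, with 752, 564 and 743 CPM in salivary glands, against 286, 2630 and 456 CPM in wing discs (-0.71 ± 0.82, not called). Without wing replicate 2 its change was 1.03 (adjusted p = 0.0142), and 84.6% of its exon bases are shared with an antisense RNA gene.

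Gut markers set salivary replicates apart. Their summed level was 0.149%, 1.503% and 0.00523% of counts in salivary libraries, against 0.00929%, 0.0041% and 0.00675% in wing libraries. The digestive protease gene Jon65Aiv had 739, 9128 and 2.83 CPM in salivary glands, against 16.9, 5.22 and 14.9 CPM in wing discs, so replicate 3 lay below every wing library. Of 24 gut markers 15 were called higher and 4 lower, and the calls higher dropped to 7 without salivary replicate 2, to 5 without wing replicate 2 and to 4 without wing replicate 1 or wing replicate 3. The calls lower dropped to 2 without salivary replicate 1, salivary replicate 3 or wing replicate 2.

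**Figure D4:**
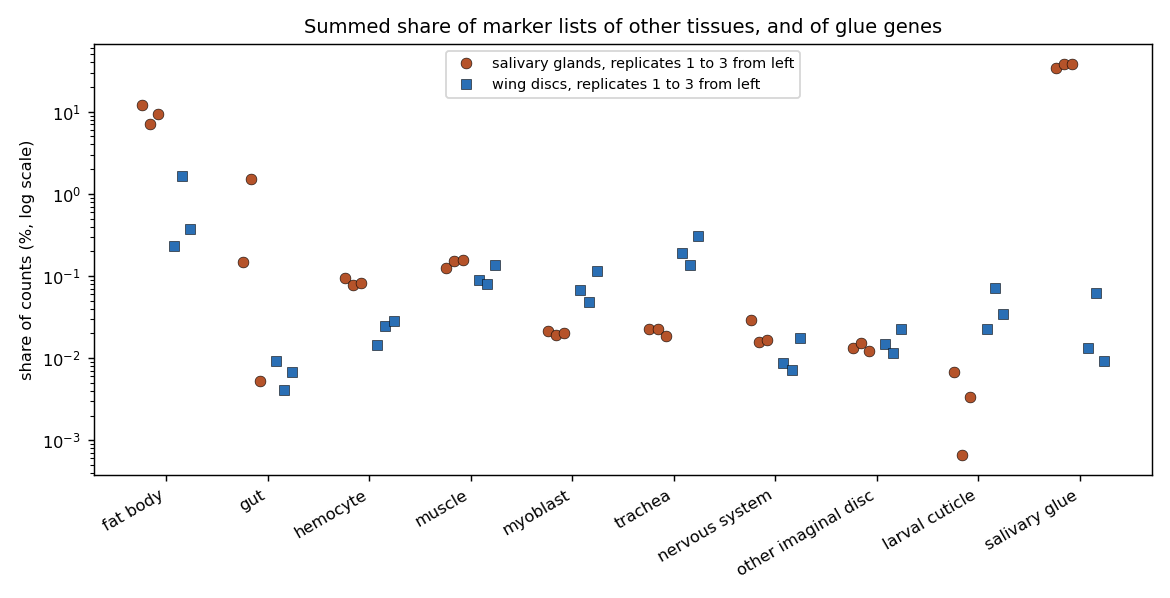
Summed share of counts (%, log axis) of marker lists of other tissues and of the glue genes in each library, salivary glands as circles and wing discs as squares, replicates 1 to 3 from left. Salivary libraries hold 7.13% to 11.9% fat body transcripts, gut transcripts range from 0.00523% to 1.503% among them, and wing replicate 2 is the highest wing library for fat body and glue.

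The hemocyte list was uneven. NimC2 had 481, 508 and 603 CPM in salivary glands, against 2.29, 14.4 and 3.61 CPM in wing discs (6.29 ± 0.84), while the defining blood cell genes Hml, Pxn and NimC1 were not called. Hml had 13.9, 11.1 and 12.9 CPM in salivary glands, against 5.27, 8.20 and 17.2 CPM in wing discs. In all 6 of 17 hemocyte markers were called higher and 2 lower, or 35.3% and 11.8%, beside 30.2% and 40.2% of all tested genes. Their summed share lay between 0.0783% and 0.0941% of salivary counts and between 0.0145% and 0.0283% of wing counts. Muscle genes gave 7 of 24 called higher and 2 lower, or 29.2% and 8.33%, so the share higher was near that of all tested genes. Those higher were led by the kinase gene Strn-Mlck with 647, 1041 and 1150 CPM in salivary glands, against 6.49, 6.69 and 9.40 CPM in wing discs (6.97 ± 0.37). The myosin heavy chain gene Mhc stood at 4.19 to 5.74 CPM in salivary glands and 3.63 to 5.21 CPM in wing discs. Without wing replicate 2 there were 11 muscle calls higher. The muscle list held 5 calls higher and 9 lower, and the hemocyte list 6 higher and 5 lower, when scaled by total count alone. The hemocyte calls lower became 1 without salivary replicate 2, salivary replicate 3 or any wing replicate, and the muscle calls lower became 1 without any salivary replicate. The muscle list summed to between 0.125% and 0.158% of salivary counts and between 0.0806% and 0.135% of wing counts.

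Marker genes of adult muscle precursors and of tracheal cells, both attached to the disc, were mostly called lower in salivary glands. The presence of such cells in the samples was not tested. Of 17 myoblast genes 9 were called lower in salivary glands and 2 higher. The myoblast factor twi had 0.995, 0.433 and 1.28 CPM in salivary glands, against 21.8, 23.6 and 23.0 CPM in wing discs, and Him was lower by -5.89 ± 0.52. Mef2, a muscle factor also used in other tissues, went the other way, with 119, 109 and 167 CPM in salivary glands, against 20.9, 13.0 and 35.4 CPM in wing discs (2.51 ± 0.42). The other myoblast call higher was lost without any salivary replicate or wing replicate 1. Of 14 tracheal markers 11 were called lower and 1 higher. The chitin deacetylase gene verm had 40.9, 40.6 and 34.0 CPM in salivary glands, against 317, 267 and 340 CPM in wing discs (-3.0 ± 0.20). The tracheal FGF receptor btl was the call higher (0.98 ± 0.32, adjusted p = 0.0331), with 8.63 to 11.7 CPM in salivary glands and 3.74 to 7.43 CPM in wing discs, and it kept its call in 2 of 6 fits without a library. Without wing replicate 3 there were 2 tracheal calls higher.

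Of 17 nervous system markers 10 were called higher and 0 lower (1 lower without salivary replicate 1). Syt1, a synaptic vesicle gene, had 172, 118 and 151 CPM in salivary glands, against 1.32, 13.3 and 1.89 CPM in wing discs (4.74 ± 1.01, adjusted p = 0.00631). The neuronal marker elav had 29.2, 6.95 and 4.63 CPM in salivary glands, against 10.9, 6.13 and 19.6 CPM in wing discs and was not called, and nSyb was highest in salivary replicate 1 (8.28, 1.19 and 0.527 CPM). Of 18 markers of other discs 9 were called higher and 2 lower, among them the eye selector toy with 12.3, 13.2 and 6.43 CPM in salivary glands, against 0.101, 0.104 and 0.0161 CPM in wing discs (7.26 ± 0.81), and ey (4.46 ± 0.44). The eye genes eya and so were not called. Of the disc markers 6 were called higher and 6 lower when scaled by total count alone. Of 13 larval cuticle genes 7 were called lower and 0 higher. Lcp4 had 22.9, 2.73 and 19.2 CPM in salivary glands, against 58.9, 147 and 126 CPM in wing discs, and 3 cuticle calls were left without wing replicate 2 and 4 without wing replicate 3.

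The largest changes lower in salivary glands fell mostly on genes that share their bases with a gene on the opposite strand. By the rule for named genes the 8 largest were dUTPase, which clears dUTP, the adenylate kinase Adk2, the respiratory chain gene UQCR-14, Atu, the protease MP1, the signal peptidase gene Spase12, Spt-I of sphingolipid synthesis and beta4GalNAcTB. All 8 had 0 counts in every salivary library. They passed the filter on low counts through their wing libraries alone, so only a call lower was open to them. dUTPase had 356, 428 and 219 CPM in wing discs, so it lay at least 4096-fold lower in salivary glands when each salivary library is set to 3 counts. dUTPase, UQCR-14, Atu, MP1, Spase12 and beta4GalNAcTB have 100% of their exon bases on exons of an opposite-strand gene and Spt-I has 99.5%, while Adk2 had no entry in the annotation used. Nap1, a histone chaperone and 1 of the 8 most abundant genes called at least 4-fold lower, is overlapped over 73.0% of its exon bases and had 0.242, 0.298 and 0.305 CPM in salivary glands, against 680, 748 and 546 CPM in wing discs.

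Over all tested genes with a measured exon length, the change followed the share of overlapped bases. Where no exon base was shared with the other strand, the median log2 change was -0.08 over 6245 genes, of which 35.7% were called lower. Up to 25% shared the median was -0.51 over 2728 genes, at 25% to 50% it was -0.73 over 289 genes, at 50% to 75% it was -2.83 over 139, at 75% to 95% it was -7.15 over 95, and above 95% it was -10.09 over 50 genes, of which 96.0% were called lower. In that last class the median level was 0 CPM in salivary glands and 2.89 CPM in wing discs. Genes at a mean under 1 CPM in salivary glands and at least 20 CPM in wing discs numbered 55, and 31 of the 53 with a measured length had at least 50% of exon bases shared, while 18 had none, vg and Doc1 among them. In the other direction 233 genes lay under 1 CPM in wing discs and at least 20 CPM in salivary glands, and 1 of 231 with a measured length had at least 50% shared. The shares of genes called lower were 49.0% with and 35.7% without any overlap. Strand use in counting was not given in the sources used here, and library kind cannot be told apart from tissue for these genes.

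**Figure D5:**
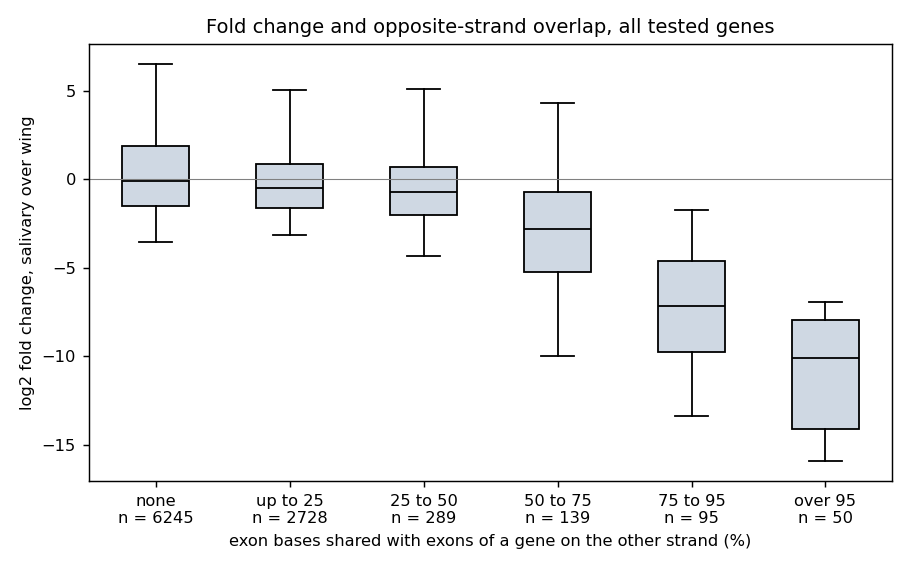
Log2 fold change, salivary glands over wing discs, of tested genes grouped by the share of exon bases that lie on exons of a gene on the other strand (boxes span the quartiles, whiskers the 5th to 95th percentile, lines the medians). The median is -0.08 with no shared bases and -10.09 above 95%.

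Transcript length moved with the comparison too. The median change was -0.66 in the class of genes with the shortest exons (median 829 bases) and 0.15 in that with the longest (median 5112 bases). Genes called lower made up 46.6% of the shortest class and 26.6% of the longest. The deviations of the wing replicates by length, given above, ran in the same classes, and their part in this difference was not tested.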

How the data were processed

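The authors deposited raw counts per gene for each library. Per the submitters' processing notes the tools were HTSeq 0.6.1, TopHat2 2.0.8b, BWA, Picard 1.119, FastQC 0.11.3 and Trim Galore 0.3.3 on build BDGP6, while their roles and strand use in counting were not given in the sources used here. The table held 16034 entries, of which 11021 carried a symbol, 4837 were named by position from the BDGP6 annotation and 176 stayed unnamed. Counts of the 6 wild-type libraries were fitted with edgeR 4.0.16 in R 4.3.3 (TMM scaling, filterByExpr at min.count 10 and min.total.count 15, robust legacy quasi-likelihood F-test, tissue as the only term). Genes were called at an adjusted p of at most 0.05. The standard error of a log2 fold change was obtained from it and the F statistic. The filter left 9720 genes, and list members below it are counted as not tested. No pair of libraries held identical values, and within a tissue the chi-square of a pair was 126 to 1319 times its degrees of freedom. The fit was tested on simulated data in which 50 genes each were changed by 2-fold, 4-fold, 8-fold and 16-fold. Of those tested 2%, 47.8%, 73.5% and 83.7% were called in the right direction, with 5 false calls. Far fewer genes were changed there than the 70.4% called in the data, so these shares do not carry over directly. A gene without a call may still differ between the tissues. Opposite-strand overlap was measured between exons of the annotation. DESeq2 1.42.0, other scalings, other filters and leaving out each library were tried.

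The members and the 42 gene lists were chosen with earlier results of these data known. The text names 4 markers, then, among called genes at least 4-fold apart with non-overlapping ranges, at least 20 CPM in the higher tissue and a symbol beyond a CG or CR number, the 8 largest changes and the 8 highest levels per direction. From each list it takes up to 3 called members per direction by level, and any member of lists of up to 15. Other genes are markers of other tissues or are said to be chosen after their values were seen. Promoter sequence was not used here.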

Additional observations from a re-analysis of the deposited data

How the results depend on the processing

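The calls depended most on how libraries were scaled. Scaled by total count alone, 1721 genes were called higher, 5995 lower and 3973 at least 4-fold lower. In that setting the log2 changes of elB (-0.14), E2f1 (-0.0090), rap (-0.62), Mhc (-1.18), btl (-0.30) and eya (-1.07) turned negative. Of these rap, Mhc and eya were called lower there (adjusted p = 0.0451, 0.00676 and 0.0275). The changes of Hml (-0.95), Pxn (-0.94), NimC1 (-0.41), elav (-1.04) and PH4alphaMP (-0.87) also turned negative, and these genes were not called with either scaling. Without genes that overlap the opposite strand, 1944 were called higher and 2472 lower, since 6426 genes were tested. In the other settings the counts called higher ranged from 2788 to 3436 and those lower from 3168 to 4387. Without 1 library they ranged from 2485 to 3386 higher and from 3417 to 4112 lower, and from 1854 to 2077 and 1744 to 2065 at 4-fold. Without 1 library Lsp2 ranged from -1.22 to 1.03, positive without wing replicate 2, and it was also positive without the second replicate of either tissue (1.18), a setting chosen after seeing the data. The 50 most abundant genes, in place of 10, took 59.3% of counts in salivary glands and 24.4% in wing discs. Of 132 called genes followed through the settings 113 kept direction and call in every alternative they were tested in. No paired analysis was possible because the labels give library numbers, not replicate numbers shared between tissues.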

Other observations

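Genes of the small chromosome 4, which is packaged as heterochromatin along much of its length, differed from the other arms in their median. Of its 82 tested genes 27 were called higher in salivary glands and 18 lower (32.9% and 22.0%), and their median log2 change was 0.42. On the other arms the medians lay between -0.39 on 3R and -0.24 on 2L. There 27.2% (X) to 33.1% (2L) were called higher and 38.0% (X) to 42.5% (3R) lower. The share called higher on chromosome 4 thus lay within the range of the other arms, and the share called lower lay below it.

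Neighbouring genes changed together in some places, chosen here after their values were seen. The longest run of adjacent tested genes called at least 4-fold higher held 12 genes on 3L (15648571 to 15687902), the Eig71E genes and pgant8 among them. Another run of 8 on the X (3176440 to 3343767) reached from dnc over the new glue genes and Pig1 to Sgs4. A run of 10 on 3R (25289889 to 25316116), CG11893 to CG10559, had a highest salivary mean of 88.9 CPM and a highest wing mean of 1.90 CPM.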
